A study of Mus musculus with 10 samples.

Results

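The probes examined here lie at 5 genes of the glial lineage, Olig2, Olig1, Sox10, Nkx2-2 and Gfap, on an Agilent 2-colour array of mouse CpG islands. They were taken by position, as the non-control probes that fall in 4 windows of the mouse build mm9 around these genes. The 5 genes themselves were chosen with earlier results of these data known. The probes number 67 of the 88737 non-control probes. DNA methylation was assayed in the left hemibrain of C57BL/6j males, mice of an inbred strain, by methylated DNA immunoprecipitation and hybridisation (MeDIP-chip). The mice received a diet from 3 weeks of age and for 24 weeks. The enriched diet (ERD, 4 arrays) had an n-3 to n-6 polyunsaturated fatty acid ratio of 7:1, the balanced diet (BLD, 3 arrays) a ratio of 1:1 and the standard laboratory diet (STD, 3 arrays) a ratio of 1:6. The customised diets were matched to the standard one in calories, per the series' design text, and all mice shared strain, sex and age range. All 10 sample titles end in the word CONTROL, whatever the diet, and none states whether an array stands for 1 animal. P-values therefore measure the spread between these samples, which may be technical.

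Oligodendrocytes, the myelin-forming glia of the brain, arise from progenitors under the control of a set of transcription factors. Olig2 and Olig1 are basic helix-loop-helix factors, of which Olig2 specifies the lineage and Olig1 takes part in later maturation and myelin repair. Sox10 is an HMG-box factor that drives myelin genes, and Nkx2-2 is a homeodomain factor that takes part in the start of oligodendrocyte differentiation. Gfap encodes the intermediate filament protein of astrocytes, and methylation of its promoter is a known feature of cells that have not yet become astrocytes. CpG islands are stretches with many CpG dinucleotides, commonly at promoters, and many are free of methylation in most tissues. In MeDIP an antibody pulls down DNA fragments that carry 5-methylcytosine, so the ratio of pulled-down to input DNA at a probe increases with methylation and also with the local density of CpGs. Hemibrain is a mixture of neurons, glia and vessel cells: a different share of cells of a type and a different methylation level within that type cannot be told apart here. The array reads DNA and not RNA, so the tissue label was not checked against expressed markers.

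The promoters are shown because the assay reads CpG methylation and those found differ in their number of CpGs. Whether the probes read these CpGs was not determined. RefSeq windows of 300 bases, from 250 before to 50 after the gene start, were found for 3 of the 5 genes, Olig2, Nkx2-2 and Gfap. They are given 5′ to 3′ on the gene's strand in build GRCm38.p6, with each CpG in capitals. The Olig2 window is chr16:91225300-91225599 (plus strand), that of Nkx2-2 is chr2:147186353-147186652 (minus strand) and that of Gfap is chr11:102897151-102897450 (minus strand). The probes are placed on mm9, a different build, so probes and windows were not laid on each other.
Olig2: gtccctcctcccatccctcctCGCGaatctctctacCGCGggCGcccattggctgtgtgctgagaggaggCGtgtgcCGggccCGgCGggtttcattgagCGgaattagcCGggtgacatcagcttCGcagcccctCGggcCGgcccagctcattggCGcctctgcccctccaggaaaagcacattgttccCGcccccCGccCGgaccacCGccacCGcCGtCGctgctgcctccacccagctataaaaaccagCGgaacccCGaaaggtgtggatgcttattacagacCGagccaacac
Nkx2-2: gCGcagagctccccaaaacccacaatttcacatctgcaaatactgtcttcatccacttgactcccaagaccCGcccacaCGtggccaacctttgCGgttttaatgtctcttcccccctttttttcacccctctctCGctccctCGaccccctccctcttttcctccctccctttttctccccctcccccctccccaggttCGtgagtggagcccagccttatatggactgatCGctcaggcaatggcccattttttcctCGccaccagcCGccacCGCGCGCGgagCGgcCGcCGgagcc
Gfap: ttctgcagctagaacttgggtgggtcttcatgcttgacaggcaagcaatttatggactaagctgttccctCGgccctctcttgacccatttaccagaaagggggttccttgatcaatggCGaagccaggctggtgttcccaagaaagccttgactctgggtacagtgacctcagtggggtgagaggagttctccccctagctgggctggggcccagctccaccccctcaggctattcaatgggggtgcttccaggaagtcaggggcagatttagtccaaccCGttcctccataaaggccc
The Olig2 window holds 25 CpGs, and 18.43% of 32851 mouse promoter windows of this length hold at least as many. The Nkx2-2 window holds 17, a number reached by 31.41% of windows. The Gfap window holds 3, below the median of 7, and 76.69% of windows hold at least as many. The Olig2 and Nkx2-2 windows thus hold more CpGs than the median window and the Gfap window fewer.

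All 5 genes had probes. On mm9 the probes fell into 10 clusters in which neighbouring probe starts lay at most 500 bp apart. Olig2 had 23 probes in 4 clusters, at chr16:91220256-91220755 (cluster 1, 6 probes), chr16:91225569-91227175 (cluster 2, 13 probes), chr16:91227699-91227816 (cluster 3, 2 probes) and chr16:91228596-91228843 (cluster 4, 2 probes). Olig1 had 20 probes in 1 cluster at chr16:91269744-91272050. The probes of the shared Olig window were assigned by gene order, since Olig2 precedes Olig1 on the chromosome in the RefSeq table, and a stretch of 40.9 kb without probes separates them. Sox10 had 5 probes at chr15:78993723-78994418. Nkx2-2 had 15 probes, at chr2:147009567-147010358 (cluster 1, 7 probes), chr2:147011359-147011816 (cluster 2, 4 probes) and chr2:147013706-147014062 (cluster 3, 4 probes). Gfap had 4 probes at chr11:102754466-102754928. No mm9 gene annotation was used, so exon, intron and promoter positions of the clusters are not given. The 8 clusters with at least 3 probes, which hold 63 of the probes, are called regions below and were tested together with all 13835 such regions of the array.

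Each value is the log2 ratio of immunoprecipitated (Cy5) over input (Cy3) signal, centred on the median of the array's non-control probes, so that 0 is the array median. The value of a region is the mean of its probes. The arrays carried the dyes in 1 orientation, so a dye effect on a probe remains in its level. Levels of different regions also hold differences between their probes and are therefore set against 0 only. Both channels were well above background for 76.4% to 94.7% of probes per array. The interquartile range of the log2 ratios averaged 0.71 ± 0.08 on ERD arrays, 0.61 ± 0.20 on BLD arrays and 0.47 ± 0.08 on STD arrays (SD, n = 4, 3 and 3). Spread thus differed between diets, and it also differed within BLD. Slides of 2 arrays each held ERD only (slides 1 and 2), BLD only (slide 3), STD only (slide 5), or 1 array of BLD and 1 of STD (slide 4), so slide and diet cannot be told apart for ERD. The interquartile range was 0.74 and 0.71 on the BLD arrays of slide 3. On slide 4 it was 0.38 on the BLD array and 0.51 on the STD array. Whether spread went with slide or with diet was not tested.

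The largest Olig2 region lay below the array median on every array. Olig2 cluster 2 read -0.40, -0.36, -0.21 and -0.28 on ERD arrays, -0.18, -0.21 and -0.22 on BLD arrays, and -0.18, -0.29 and -0.11 on STD arrays. The diets overlapped. Values below the array median on all 10 arrays were found in 16% of all regions of the array and in 26.7% of those with over 10 probes. None of the 8 glial regions was above the array median on all arrays, where 8.27% of all regions were. Means were -0.31 ± 0.08 in ERD, -0.21 ± 0.02 in BLD and -0.19 ± 0.09 in STD (SD). With the normexp background correction the level of Olig2 cluster 2 over all arrays was -0.03, against -0.24 as reported.

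The Olig2 probe of lowest mean level, A_68_P30961699, was the last of that region, at chr16:91227131-91227175. A_68_P30961699 averaged -1.59 ± 0.37 in ERD, -0.76 ± 0.54 in BLD and -0.86 ± 0.33 in STD, and was below 0 on all 10 arrays. The values ran between -2.10 and -1.29 in ERD, between -1.38 and -0.36 in BLD and between -1.11 and -0.48 in STD. Both channels were well above background on all 4 ERD and all 3 BLD arrays but on 1 of 3 STD arrays. Its neighbour A_68_P30961698, at chr16:91227011, was also low, averaging -1.38 ± 0.35 in ERD, -0.73 ± 0.14 in BLD and -0.58 ± 0.56 in STD. The plot of the Olig2 and Olig1 probes by position gives the diet means of every probe of both regions.

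**Figure D1:**
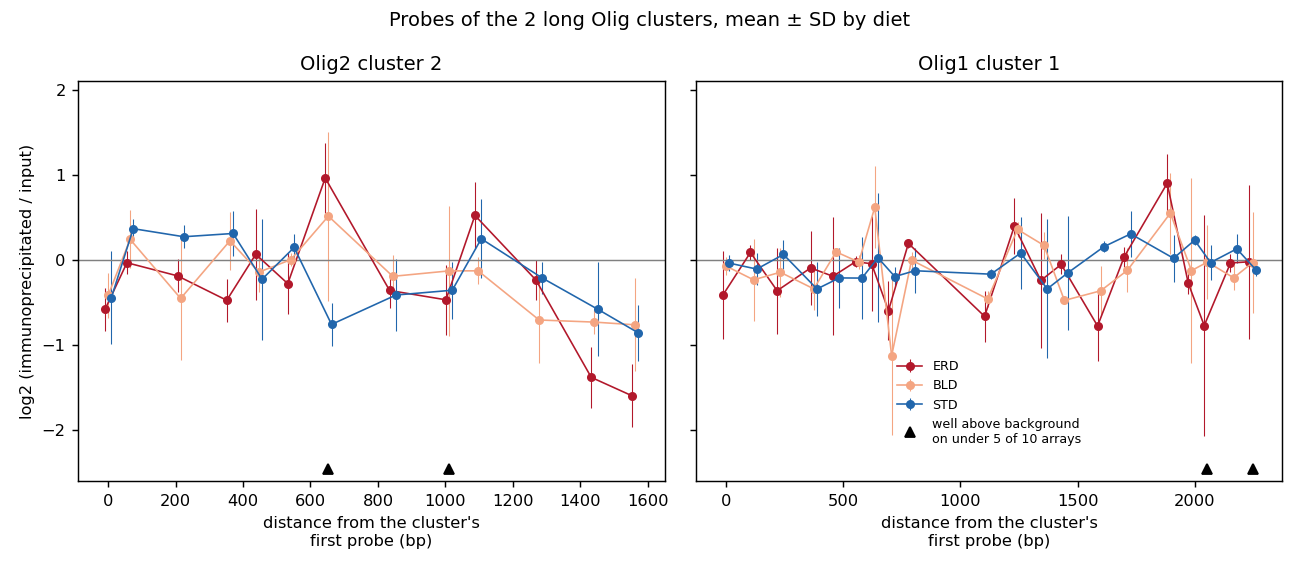
Log2 ratio of immunoprecipitated over input DNA (vertical axis) at each probe of Olig2 cluster 2 and Olig1 cluster 1, against the distance from the cluster's first probe in bp; points are means and bars SDs over 4 ERD, 3 BLD and 3 STD arrays, set slightly apart, and triangles mark probes well above background on under 5 of 10 arrays. The last probe of Olig2 cluster 2 averages -1.59 in ERD, -0.76 in BLD and -0.86 in STD, and Olig1 holds probes above and below 0 in each diet.

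The other Olig2 clusters differed in sign. Olig2 cluster 1, the lowest in coordinate, ranged from -0.33 to 0.20 in ERD, from -0.06 to 0.18 in BLD and from -0.03 to 0.12 in STD, around the array median in each diet. Olig2 cluster 3, a pair of probes, read -0.50, -0.23, -0.48 and -0.70 in ERD, -0.35, -0.40 and -0.10 in BLD, and -0.11, -0.04 and -0.21 in STD. The values were below 0 in each diet, and BLD overlapped both other diets. All ERD values were below all STD values, and ERD and STD did not overlap in 16.2% of all regions of at least 3 probes. The 2 probes of cluster 3 differed. A_68_P30961703 averaged 0.02 in ERD, -0.46 in BLD and 0.05 in STD, and was above 0 on 6 of 10 arrays. A_68_P30961704 averaged -0.98 in ERD, -0.11 in BLD and -0.29 in STD, and was below 0 on all 10. Olig2 cluster 4, also a pair, read 0.92, 0.56, 0.27 and 0.69 in ERD, 0.36, 0.25 and 0.20 in BLD, and 0.40, 0.52 and 0.04 in STD. The values were above 0 in each diet, but 1 of its 2 probes, A_68_P30961712, was a 60-nucleotide probe whose input signal was well above background on 0 of 10 arrays. Pairs of probes were below the size for a region and were tested only as single probes.

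Olig1, with the most probes in 1 region, stayed near the array median. Its region read -0.07, -0.44, -0.12 and 0.03 in ERD, -0.27, 0.03 and -0.05 in BLD, and 0.10, -0.10 and -0.15 in STD. The diets overlapped and each held values on both sides of 0. Mean levels of its 20 probes over all arrays ran from -0.64 (A_68_P30961947) to 0.53 (A_68_P30961957), and no probe was above 0 on all arrays while 2 were below 0 on all. The lowest probe, A_68_P30961947, rested in part on 1 array: it read -2.15 on BLD replicate 1 and between -1.01 and -0.11 on the others.

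Sox10 was the gene with a tested region whose ERD arrays overlapped neither other diet. Its region read 0.29, 0.35, 0.20 and 0.21 in ERD, -0.17, 0.16 and 0.13 in BLD, and 0.18, -0.01 and 0.05 in STD. All 4 ERD values were above all BLD and all STD values, though the lowest of them exceeded the highest STD value, 0.18, by less than the SD within either diet. Over all regions, ERD did not overlap STD in 16.2% and did not overlap BLD in 10.1%. No share was computed for both together. The means were 0.26 ± 0.07 in ERD, 0.04 ± 0.18 in BLD and 0.07 ± 0.10 in STD (SD). Among its 5 probes, A_68_P30364763 was above 0 on all 10 arrays, averaging 0.29 ± 0.04 in ERD, 0.08 ± 0.06 in BLD and 0.09 ± 0.03 in STD.

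The 3 Nkx2-2 regions lay close to the array median and none kept 1 sign on all arrays. Nkx2-2 cluster 2 read 0.09, 0.24, -0.09 and 0.17 in ERD, 0.41, 0.32 and 0.17 in BLD, and -0.11, 0.23 and -0.36 in STD. The BLD arrays were all above 0, and the STD arrays were the widest apart. Nkx2-2 cluster 1 ranged from -0.10 to 0.13 in ERD, from 0.03 to 0.31 in BLD and from -0.09 to 0.07 in STD, and Nkx2-2 cluster 3 from -0.20 to 0.24 in ERD, from 0.17 to 0.31 in BLD and from -0.04 to 0.50 in STD. In both, the diets overlapped. The probe of highest level at this gene, A_68_P21722763 in cluster 3, was above 0 on all 10 arrays but read 1.57 on STD replicate 3, where neither channel was well above background on any STD array.

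Gfap, the astrocyte gene, had the widest spread over the ERD arrays among the 8 regions. Its region read 0.07, 0.86, -0.08 and 0.38 in ERD, 0.19, 0.43 and 0.35 in BLD, and -0.06, 0.44 and 0.17 in STD. The ERD arrays alone spanned the range of the other diets, and 8 of 10 arrays were above 0. The means were 0.31 ± 0.41 in ERD, 0.32 ± 0.12 in BLD and 0.18 ± 0.25 in STD (SD). Its probes split: A_68_P28082092 and A_68_P28082095 were above 0 on all 10 arrays, whereas A_68_P28082093 was above 0 on 5 and below on 5. A_68_P28082095 had the highest level, averaging 0.69 ± 0.34 in ERD, 0.60 ± 0.20 in BLD and 0.56 ± 0.37 in STD.

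**Figure D2:**
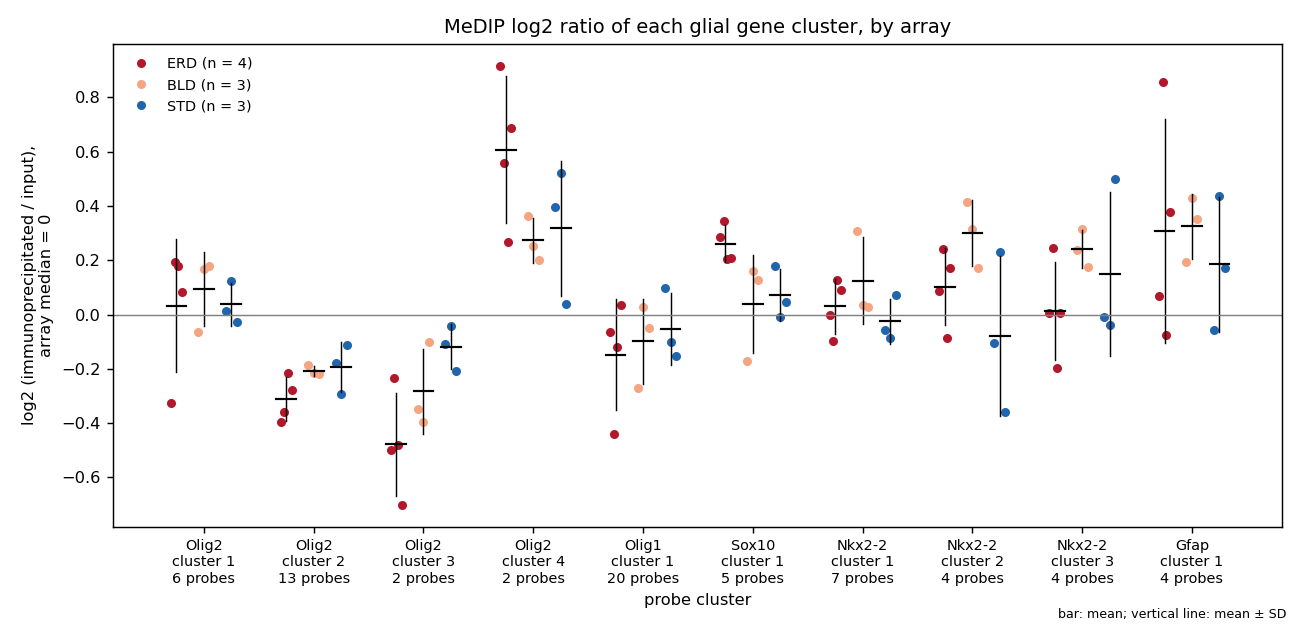
Mean log2 ratio of immunoprecipitated over input DNA, centred on the array median (vertical axis), for the 10 probe clusters at the 5 genes (horizontal axis), with 1 point per array in ERD, BLD and STD, a bar at each diet's mean and a vertical line for its SD. All arrays lie below 0 at Olig2 clusters 2 and 3 and above 0 at Olig2 cluster 4, the 4 ERD arrays lie above the others at Sox10, and the Gfap ERD arrays span -0.08 to 0.86.

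**Figure D3:**
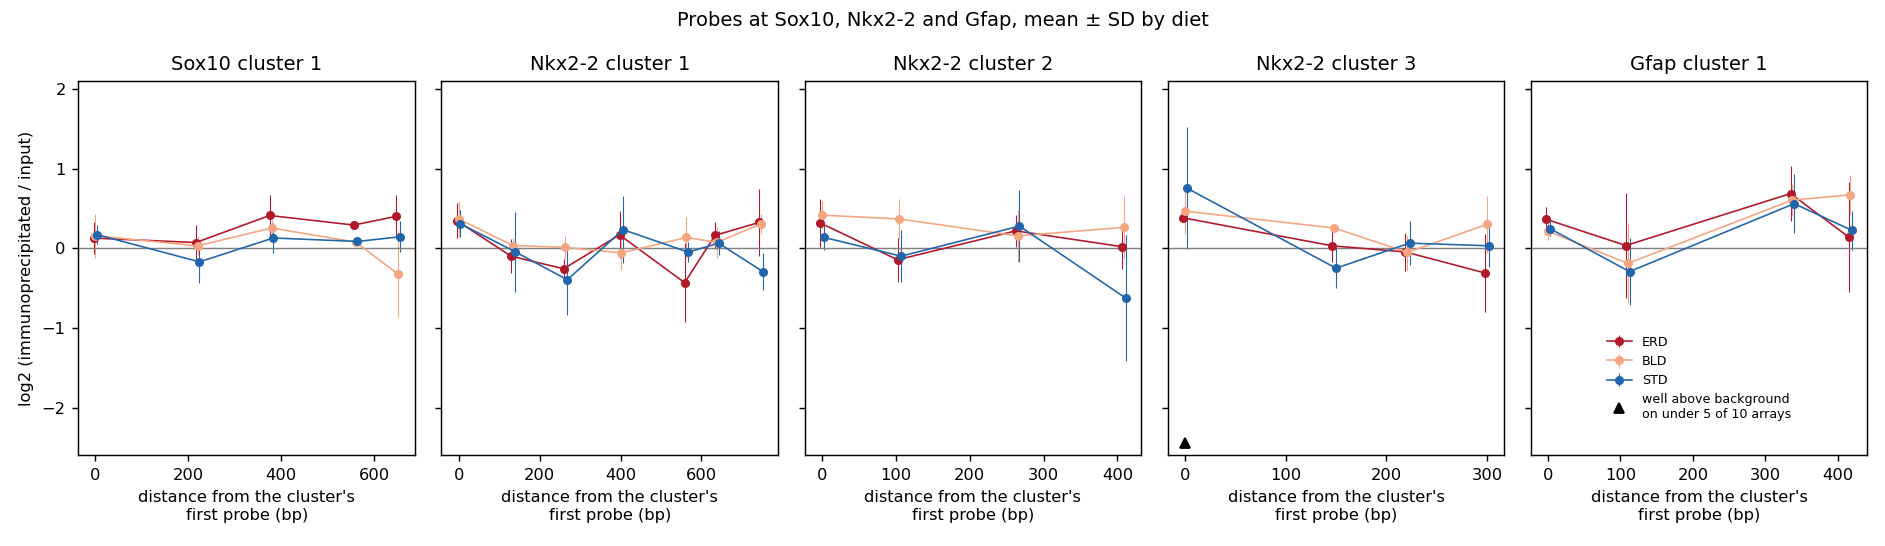
Log2 ratio of immunoprecipitated over input DNA (vertical axis) at each probe of the Sox10, Nkx2-2 and Gfap regions, against the distance from the first probe in bp; points are means and bars SDs over 4 ERD, 3 BLD and 3 STD arrays, and triangles mark probes well above background on under 5 of 10 arrays. At Gfap the region means are 0.31 in ERD, 0.32 in BLD and 0.18 in STD, and the BLD mean of -0.32 at the last Sox10 probe, A_68_P30364764, rests on 1 BLD array at -0.95, with the others at 0.05 and -0.07.

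Over all 67 probes, 8 were above and 5 below the array median on all 10 arrays, against 7.33% and 10.4% of all probes. Of the 67, 36 were well above background in both channels on all 10 arrays. Probe length went with precision: the SD over arrays had a median of 0.313 for the 52 probes of 45 or 46 nucleotides and 0.494 for the 10 of 55 to 60 nucleotides. On the whole array these medians were 0.329 and 0.538. None of the 10 long glial probes was well above background on all arrays, against 7.84% of all probes of that length.

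**Figure D4:**
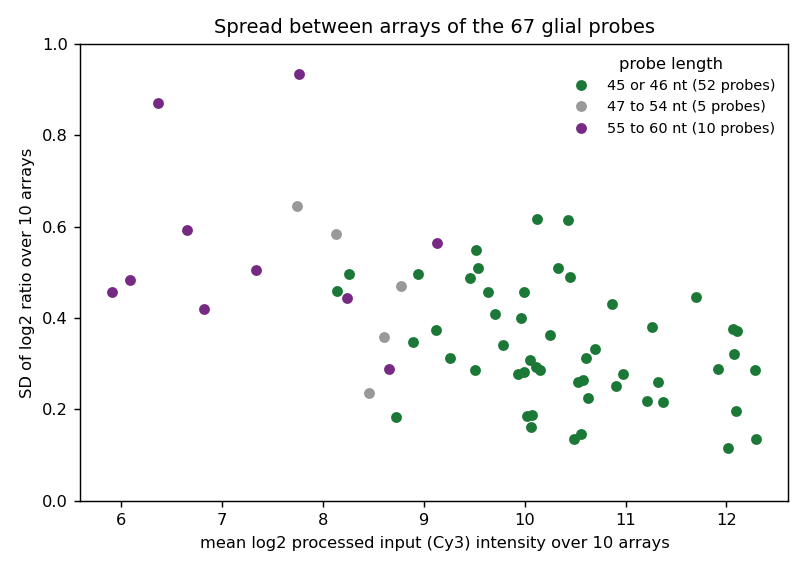
SD of the log2 ratio over 10 arrays (vertical axis) against the mean log2 processed input intensity (horizontal axis) for the 67 glial probes, coloured by probe length. The 10 probes of 55 to 60 nucleotides sit at low input intensity (median 7.08 on the log2 scale) and include the probe of largest SD, at 0.935.

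The first comparison, ERD minus STD, set the diet richest in n-3 fatty acids against the standard diet. None of the 8 regions passed the test (limma over all 13835 regions, Benjamini-Hochberg adjusted p between 0.390 and 0.989), and 0 regions of the array did. At unadjusted p under 0.05 the count was 0 of 8, where 15.7% of all regions reached it. The region differences were split, 4 lower and 4 higher in ERD, with a median of 0.03 beside 0.00 over all regions. The 95% intervals of the 8 differences lay between -0.44 and 0.55.

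Sox10 had the smallest p among the regions in this comparison. ERD exceeded STD there by 0.19 ± 0.10 (SE, 95% interval -0.04 to 0.41, limma adjusted p = 0.390). It was the 1 region of 8 in which ERD and STD arrays did not overlap, which occurred in 16.2% of all regions. The difference was 0.09 after loess within arrays. Olig2 cluster 2 was lower in ERD by 0.12 ± 0.09 (difference -0.12, 95% interval -0.31 to 0.07, limma adjusted p = 0.524), with overlapping diets. That mean included 1 dim probe with a difference in the other direction: A_68_P30961692, at chr16:91226222-91226281 and 60 nucleotides long, averaged 0.96 ± 0.42 in ERD, 0.51 ± 0.99 in BLD and -0.76 ± 0.26 in STD. Its BLD values were 1.37 and 0.75 on slide 3 and -0.58 on slide 4, where the STD array read -1.05. The input signal of this probe was well above background on 0 of 4 ERD, 1 of 3 BLD and 3 of 3 STD arrays. When only probes well above background on at least 5 arrays were kept, a setting chosen after this was seen, the Olig2 cluster 2 difference was -0.29, with an unadjusted p of 0.00823 and an adjusted p of 0.190 by limma. In that setting 2146 of 13276 regions reached unadjusted p under 0.05. With the normexp correction the difference was 0.06, the other direction.

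For single probes, 9 of 67 reached unadjusted p under 0.05 between ERD and STD, against 15% of all probes. Of these, 6 were lower and 3 higher in ERD, where 8.52% of all probes were lower and 6.52% higher. None passed after adjustment (smallest limma adjusted p 0.151), and 0 of 88403 probes of the array did. Olig2 held 4 of the 6 lower probes and Olig1 the other 2. The 3 higher probes lay 1 each in Olig2, Olig1 and Nkx2-2. The probes of smallest p were the dim A_68_P30961692, with a difference of 1.72 ± 0.39 (SE), and A_68_P30961955 in Olig1, at chr16:91271343-91271387. A_68_P30961955 read -0.37, -0.67, -1.34 and -0.72 in ERD, -0.68, -0.29 and -0.12 in BLD, and 0.22, 0.15 and 0.09 in STD. ERD and BLD values were below 0 and STD values above it, a description of a probe picked for its small p, and both channels were well above background on all arrays. Its ERD minus STD difference was -0.93 ± 0.23 (SE, limma adjusted p = 0.152). The Olig1 probe of highest level, A_68_P30961957, at chr16:91271640-91271699, averaged 0.90 ± 0.34 in ERD, 0.55 ± 0.48 in BLD and 0.02 ± 0.28 in STD. This 60-nucleotide probe was dim: both channels were well above background on 1 of 4 ERD, 3 of 3 BLD and 1 of 3 STD arrays. Of the 20 Olig1 probes, 10 had a lower and 10 a higher mean in ERD than in STD.

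**Figure D5:**
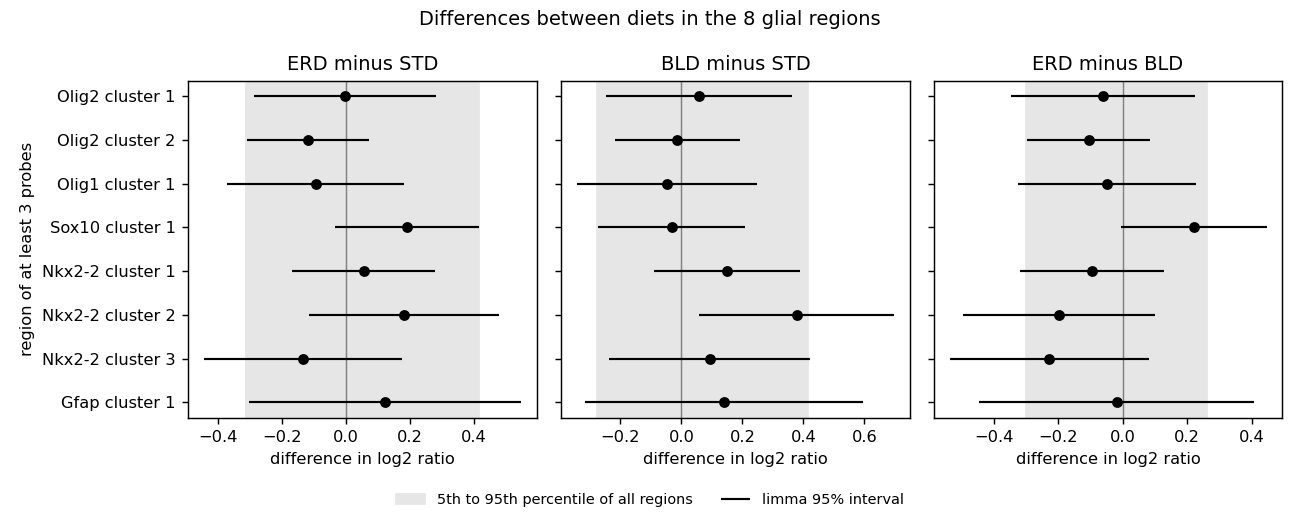
Difference in region value (log2 ratio) for ERD minus STD, BLD minus STD and ERD minus BLD at the 8 glial regions, with limma's 95% interval as a line and the 5th to 95th percentile of the differences of all 13835 regions as a grey band. Every interval reaches 0 except that of Nkx2-2 cluster 2 in BLD minus STD, which runs from 0.06 to 0.70, and all points lie within the grey band.

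The comparison of BLD with STD addressed the balanced diet. Again 0 of 8 regions passed (limma adjusted p between 0.440 and 0.966; 0 of 13835 regions of the array). One region, Nkx2-2 cluster 2, reached unadjusted p under 0.05, where 11.2% of all regions did. BLD exceeded STD there by 0.38 ± 0.15 (SE, 95% interval 0.06 to 0.70, limma adjusted p = 0.440). The BLD values, 0.41, 0.32 and 0.17, overlapped the highest STD value, 0.23. On slide 4, which held 1 BLD and 1 STD array, the values were 0.17 for BLD and -0.11 for STD, a difference of 0.28. The difference was 0.24 when STD replicate 3 was left out, and -0.03 with the normexp correction. The 4 probes of Nkx2-2 cluster 2 had differences of 0.28, 0.47, -0.12 and 0.89. The largest was at A_68_P21722745, which read -0.94, 0.27 and -1.21 in STD. Both channels of this probe were well above background on 2 of 3 BLD and 1 of 3 STD arrays. None of the 8 regions kept BLD and STD arrays apart, which 17.4% of all regions did. Of the 8 differences 3 were lower and 5 higher in BLD, with a median of 0.07 beside 0.03 over all regions, and their 95% intervals lay between -0.34 and 0.70.

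Of single probes 7 of 67 reached unadjusted p under 0.05 between BLD and STD, against 10.5% of all probes, and the smallest limma adjusted p was 0.463. They were 3 lower and 4 higher in BLD, where 4.33% of all probes were lower and 6.2% higher. Olig2 held 1 higher and 2 lower probes, and Olig1 held 1 lower probe. Nkx2-2 held 3 of the 4 higher probes, 1 in each of its regions. In cluster 3, A_68_P21722764 at chr2:147013854-147013898 averaged 0.03 ± 0.20 in ERD, 0.25 ± 0.02 in BLD and -0.25 ± 0.25 in STD, and the BLD minus STD difference was 0.50 ± 0.20 (SE). The 3 BLD values of this probe, 0.26, 0.26 and 0.24, were closer to each other than those of the other diets. That is a description of a probe picked for its small p.

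ERD and BLD, the 2 customised diets, were compared directly as well. The 8 regions gave 0 calls (limma adjusted p between 0.498 and 0.986; 0 of 13835 over the array) and 0 at unadjusted p under 0.05, against 10.2% of all regions. In 7 of the 8 the ERD mean was below the BLD mean, with a median difference of -0.08, beside -0.03 and 56.4% lower over all regions. With the normexp correction these 7 differences turned positive, between 0.03 and 0.21. In the other region, Sox10, ERD exceeded BLD by 0.22 ± 0.10 (SE, 95% interval -0.004 to 0.45, limma adjusted p = 0.498). Sox10 was again the 1 region of 8 without overlap, a pattern found in 10.1% of all regions. The Sox10 difference was 0.117 without BLD replicate 1, the array of lowest Sox10 value, and 0.08 after loess. It was 0.36 over its probes well above background on all arrays (limma adjusted p = 0.393). That filter kept 3 of the 5 Sox10 probes, with differences of 0.16, 0.21 and 0.72. The largest was at A_68_P30364764, where BLD replicate 1 read -0.95. The 3 Nkx2-2 differences were -0.09, -0.20 and -0.23 in clusters 1, 2 and 3, each with a 95% interval that held 0. The ERD to STD and ERD to BLD comparisons share the ERD arrays, so the Sox10 values in them are not separate evidence.

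Among single probes, 10 of 67 reached unadjusted p under 0.05 between ERD and BLD, against 11.7% of all probes, and none passed after adjustment (smallest limma adjusted p 0.379). Of these, 7 were lower and 3 higher in ERD, where 6.14% of all probes were lower and 5.54% higher. Olig2 held 4 of the lower probes and Nkx2-2 the other 3. Of the 3 higher probes, Olig2 held 2 and Sox10 held 1. Olig2 cluster 3 held 1 lower and 1 higher probe. The smallest p belonged to A_68_P30961704 in Olig2 cluster 3, at chr16:91227772-91227816, which averaged -0.98 ± 0.40 in ERD, -0.11 ± 0.10 in BLD and -0.29 ± 0.33 in STD. A_68_P30961689 in Olig2 cluster 2, at chr16:91225930-91225975, followed with -0.47 ± 0.26 in ERD, 0.22 ± 0.34 in BLD and 0.31 ± 0.26 in STD. At both of these probes the ERD mean was the lowest, a description of probes picked for their small p. ERD values overlapped those of STD at A_68_P30961704. Both channels of A_68_P30961689 were well above background on 2 of 4 ERD, 2 of 3 BLD and 3 of 3 STD arrays.

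A trend over the log2 of the n-3 to n-6 ratio, in the order STD, BLD and ERD, was fitted over all 10 arrays. None of the 8 regions passed (smallest limma adjusted p 0.392), against 6 of 13835 regions of the array (0.0434%). None reached unadjusted p under 0.05, against 15% of all regions, and 4 slopes were negative and 4 positive. The Sox10 slope was 0.04 ± 0.02 (SE) per doubling of the ratio and 0.02 after loess. Its diet means were 0.07 in STD, 0.04 in BLD and 0.26 in ERD and so did not climb at each step. Of single probes 10 of 67 reached unadjusted p under 0.05 for the trend, against 14.6% of all probes, and the smallest limma adjusted p was 0.130. Of these, 7 had a negative and 3 a positive slope, where 8.56% and 6.02% of all probes had.

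How the glial regions varied with each other was described over all arrays. Over the 28 pairs of the 8 regions, Pearson's r of region values over 10 arrays ran from -0.59 to 0.53 with a median of -0.02; the points share arrays, slides and array spread. The mean of the 8 regions was 0.04 ± 0.08 in ERD, 0.10 ± 0.05 in BLD and 0.01 ± 0.02 in STD (SD, n = 4, 3 and 3). ERD arrays overlapped both other diets, while the BLD arrays, between 0.06 and 0.15, all lay above the STD arrays, between -0.01 and 0.03. For single regions, BLD and STD arrays did not overlap in 17.4% of the array, and the median BLD minus STD difference was 0.03. No such share was computed for means of 8 regions, and no test was made of the mean of the 8 regions. For each gene's largest region, the regions elsewhere on the array whose 10 values were most alike, as a description chosen from 13835 regions, had r of 0.917 or more. For Olig2 cluster 2 the closest was chr5:31481904-31482709 (r = 0.953, 9 probes), for Olig1 chr11:5161168-5161397 (r = 0.952, 3 probes), for Sox10 chrX:94267800-94268113 (r = 0.968, 4 probes), for Nkx2-2 cluster 1 chr15:102576879-102577932 (r = 0.922, 7 probes) and for Gfap chr5:115568969-115569321 (r = 0.959, 3 probes). These positions are on mm9 and carry no gene name here.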

How the data were processed

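Each of the 10 arrays held immunoprecipitated (Cy5) and input (Cy3) DNA. The authors' deposited scanner files give processed intensity per channel, which was background-subtracted and dye-scaled with Agilent Feature Extraction 10.7.3.1, per the file headers (9.0 in the submitters' processing notes), and a log10 ratio. The deposited value table of the series repeats that log10 ratio, Cy5 over Cy3, uncentred, with column medians between -0.00795 and 0.00095 on the log10 scale. The largest difference between the table and the scanner files was 0.00498.

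From the deposited intensity a log2 ratio was computed per probe, outlier spots were dropped and arrays were median-centred, with no loess or quantile step. Probes whose starts lay at most 500 bp apart formed regions, kept from 3 probes up. The 326 probes with no position entered no region. Diets and the trend were tested with lmFit and eBayes of limma 3.58.1 in R 4.3.3 over all 10 arrays, on 13835 regions and separately on 88403 probes, adjusted by Benjamini-Hochberg with a threshold of 0.05. The number of arrays limits the precision. The fit was first tested on simulated data.

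The 5 genes and all lists were chosen with earlier results of these data known. Every region was named, as were the probes of highest and lowest level per gene, the 2 of lowest p per comparison, and the regions most alike in pattern. Probes outside this rule (A_68_P30961698, A_68_P30961703, A_68_P30364763, A_68_P30364764, A_68_P21722745, A_68_P28082092) were named after their values were seen. Lists of other oligodendrocyte and astrocyte genes were not analysed here, since no probe sequence or mm9 annotation was used to place them. Alternatives varied the background correction, the normalization, the filters, the region definition, the slide block, the weights and the arrays included.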

Additional observations from a re-analysis of the deposited data

How the results depend on the processing

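No glial region passed the adjusted threshold in any comparison under any alternative run (smallest limma adjusted p 0.178). Over differences of single regions, 723 of the alternative values kept their direction and their side of unadjusted p 0.05, 66 were reversed, 14 came to lie under 0.05 and 5 no longer did; of the levels, 179 moved by less than the SD over arrays and 1 by more. The cause was not tested for any of these.

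The normexp background correction, run on median spot signals since mean signals were not used here, reversed 21 of 32 differences. In ERD minus STD the values were 0.059 (Olig2 cluster 2), 0.056 (Olig1), -0.031 (Nkx2-2 cluster 1) and -0.0048 (Gfap). In BLD minus STD they were -0.083 and 0.028 (Olig2 clusters 1 and 2), -0.13, -0.030 and -0.20 (Nkx2-2 clusters 1, 2 and 3) and -0.22 (Gfap). In ERD minus BLD they were 0.083 and 0.031 (Olig2 clusters 1 and 2), 0.11 (Olig1), 0.10, 0.045 and 0.043 (Nkx2-2 clusters 1, 2 and 3) and 0.21 (Gfap). The trend slopes were 0.0016 and 0.011 (Olig2 clusters 1 and 2), 0.012 (Olig1) and -0.0033 (Nkx2-2 cluster 1). Regions with unadjusted p under 0.05 over the array numbered 1206 for ERD minus STD, 497 for BLD minus STD, 67 for ERD minus BLD and 1242 for the trend. Glial regions numbered 0 for BLD minus STD, and 0 regions passed for the trend.

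Other settings also reversed differences, among them Gfap (0.12) and Nkx2-2 cluster 3 (-0.14) in ERD minus STD and Nkx2-2 cluster 3 (0.09) in BLD minus STD. Loess gave 0.0045 for Olig2 cluster 1 in ERD minus STD, and 0.0074 for Sox10 and -0.022 for Nkx2-2 cluster 3 in BLD minus STD. Quantile normalization gave -0.0048 for Gfap in ERD minus STD and a slope of -0.0032. Scaling arrays to one spread gave 0.015 for Olig2 cluster 2 and -0.0060 for Nkx2-2 cluster 3 in BLD minus STD. Probes well above background on all arrays, which left 4 of the 8 regions, gave -0.039 (ERD minus STD) and a slope of -0.0091 for Nkx2-2 cluster 1 and 0.069 for Olig1 in ERD minus BLD. Array weights gave 0.021 (ERD minus STD) and a slope of 0.0037 for Olig2 cluster 1, and 0.023 for Olig1 and 0.031 for Sox10 in BLD minus STD. The median of probes gave, for Olig2 cluster 1, 0.013 in ERD minus STD, -0.0082 in BLD minus STD, 0.021 in ERD minus BLD and a slope of 0.0027; it gave 0.018 for Nkx2-2 cluster 3 in ERD minus STD, 0.039 for Olig2 cluster 2 in BLD minus STD and 0.050 for Olig1 in ERD minus BLD.

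Glial regions with unadjusted p under 0.05 numbered 0 in BLD minus STD with loess and with probes well above background on all arrays. They numbered 1 in ERD minus BLD with that filter on all arrays and with array weights. With the median of probes they numbered 1 in ERD minus STD, 2 in BLD minus STD, 2 in ERD minus BLD and 1 for the trend. With probes well above background on at least 5 arrays, chosen after seeing the data, they numbered 1 in ERD minus STD and 1 for the trend. Over the array, adjusted calls in ERD minus STD numbered 10 with quantile normalization, 8 with array weights and 1 with the median of probes, and in BLD minus STD 2 with only the arrays compared. For the trend they numbered 6 as reported, 10 with quantile normalization, 39 with array weights, 1 with scaling or the median of probes, and 0 with loess, the slide block, regions of at least 1 probe and the filter on at least 5 arrays. Unadjusted calls over the array were 874 with scaling in ERD minus BLD, and in BLD minus STD 1011 with probes well above background on all arrays and 2584 with array weights.

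Leaving out 1 array at a time gave differences between -0.058 and 0.12 (Olig2 cluster 1), -0.16 and 0.0018 (Olig1), -0.061 and 0.25 (Gfap) and -0.23 and 0.038 (Nkx2-2 cluster 3) in ERD minus STD. In BLD minus STD they lay between -0.063 and 0.028 (Olig2 cluster 2), -0.11 and 0.040 (Olig1), -0.092 and 0.072 (Sox10) and -0.0026 and 0.27 (Nkx2-2 cluster 3). In ERD minus BLD they lay between -0.14 and 0.059 (Olig2 cluster 1), -0.14 and 0.048 (Olig1) and -0.20 and 0.11 (Gfap), and for Sox10 between 0.117 and 0.281. Slopes lay between -0.011 and 0.021 (Olig2 cluster 1), -0.029 and 0.00057 (Olig1), -0.00086 and 0.018 (Nkx2-2 cluster 1), -0.0032 and 0.044 (Nkx2-2 cluster 2) and -0.012 and 0.046 (Gfap). Glial regions with unadjusted p under 0.05 numbered between 0 and 1 in all 4 comparisons; that of BLD minus STD was lost without BLD replicate 1, BLD replicate 2, STD replicate 1 or STD replicate 3. Over the array, unadjusted calls numbered between 1192 and 2238 in ERD minus STD, 614 and 2590 in BLD minus STD, 902 and 1724 in ERD minus BLD and 1171 and 2358 for the trend. Adjusted calls numbered between 0 and 1, 0 and 2, and 0 and 5 in ERD minus STD, BLD minus STD and the trend. No paired analysis was possible because the labels give no replicate numbers, and those used here only name the arrays. Dim probes limit what can be read: 31 of the 67 were not well above background on every array.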
